A study of Mus musculus with 8 samples.

Results

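CD8 effector memory T cells (Tem) after stimulation were the 955 cells that the deposited annotation placed in the CD8 class under a Tem label, with the number at the end of the label removed. They came from 12846 annotated mouse splenic T cells, of which 6832 had been stimulated, and no unstimulated CD8 cell carried a Tem label. The cells fell into 4 libraries: WT replicate 1 held 196 of them, WT replicate 2 held 241, SDHA-KO replicate 1 held 286 and SDHA-KO replicate 2 held 232. SDHA-KO mice were Sdha fl/fl CD4-Cre animals, in which Cre recombinase under Cd4 regulatory sequences removes part of the gene for the catalytic subunit of succinate dehydrogenase. The controls are given as WT B6 mice, and the sources used here do not say for these libraries whether they carried the floxed alleles. All mice were young adults. T cells of both genotypes were purified from spleens with magnetic beads and cultured for 48 h with soluble antibodies against CD3 (5 µg/mL) and CD28 (2.5 µg/mL), after which dead cells were removed. Transcripts were counted in single cells from their 3′ ends as unique molecular identifiers (UMIs). The question was how loss of SDHA changes the transcripts of CD8 effector cells that have been activated through the T cell receptor.

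Effector memory CD8 T cells patrol tissues and respond to antigen within hours by releasing interferon gamma and by killing through perforin and granzymes, and after strong activation in culture the label also covers newly made effector cells. Activated T cells raise glycolysis and build mitochondria. Succinate dehydrogenase, complex II of the electron transport chain (ETC), oxidises succinate in the tricarboxylic acid (TCA) cycle, and succinate is also an inhibitor of the prolyl hydroxylases that mark hypoxia-inducible factor (HIF) for destruction. CD4-Cre is active in thymocytes that pass through the CD4 CD8 double-positive stage. That is the route of alpha-beta T cells and not of most gamma-delta T cells, whose receptor uses the constant genes Trdc and Tcrg-C.

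The sums over these cells held 12325554 and 14673968 UMIs in the WT libraries and 15418556 and 12426476 in the SDHA-KO libraries. The median cell held 65563 and 65127 UMIs in WT and 50089 and 48529 in SDHA-KO, and 3.11 and 2.92% of its UMIs in WT and 2.43 and 2.39% in SDHA-KO were mitochondrially encoded. Depth per cell and mitochondrial share thus both differed by genotype, and their part in the results was not tested. No cell barcode was shared between libraries among these cells. The labels do not say whether replicates came from separate mice, so p-values measure the spread between 2 libraries per genotype, which may be technical. Over sums, fewer cells of a type and less RNA per cell cannot be told apart.

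Tem cells made up a larger share of the CD8 class in the SDHA-KO cultures. In WT they were 23.2% (95% Wilson interval 20.5 to 26.2) and 28.9% (25.9 to 32.1) of 844 and 834 CD8 cells, and in SDHA-KO they were 56.0% (51.6 to 60.2) and 58.6% (53.7 to 63.3) of 511 and 396. The means were 26.1% ± 4.01 (SD, n = 2) and 57.3% ± 1.85 (SD, n = 2), and the genotypes did not overlap. An exact permutation test of 2 against 2 cannot go below p = 0.33 and was not used. As a share of all cells of a library the Tem label differed less, at 11.5 and 13.4% in WT and 17.4 and 13.8% in SDHA-KO, and the SDHA-KO libraries held fewer CD8 Tcm cells (225 and 164, against 648 and 593 in WT). The labels came from clusters of the same transcripts that differ between genotypes, so these shares describe the annotation.

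The given markers were checked in every library. Gzmb (granzyme B) and Tnfrsf9 (the activation receptor 4-1BB) were detected in nearly every cell. Cd8a was detected in 90.3 and 91.7% of WT cells but in 64.3 and 69.4% of SDHA-KO cells. Ifng (interferon gamma) was detected in 67.3 and 73.9% of WT cells and in 84.3 and 81.5% of SDHA-KO cells. A UMI of neither Cd4 nor the Cd8 genes was found in 28.7 and 22.8% of the SDHA-KO cells, against 5.6 and 5.0% in WT. Foxp3, which marks regulatory T cells, was found in 1.02 and 0.41% of WT cells and in 0.70 and 2.16% of SDHA-KO cells. The marker genes therefore fitted the label in WT, whereas the 28.7 and 22.8% of SDHA-KO cells named above showed no coreceptor transcript.

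The label covered 4 numbered sub-labels, Tem1, Tem2, Tem3 and Tem6, and their proportions differed by genotype. Tem1 was 8.16 and 6.64% of the WT cells and 47.6 and 47.8% of the SDHA-KO cells. Tem2 was 67.3 and 62.2% in WT and 26.2 and 27.2% in SDHA-KO. Tem3 was 19.4 and 24.1% in WT and 11.2 and 6.03% in SDHA-KO. Tem6 was 5.10 and 7.05% in WT and 15.0 and 19.0% in SDHA-KO. Tem2 was thus the main form in WT and Tem1 in SDHA-KO, and none of the 4 sub-labels overlapped between genotypes in its share.

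The same sub-label did not hold like cells in both genotypes. The WT cells of Tem1 (16 and 16 cells) and Tem6 (10 and 17 cells) were shallow and rich in mitochondrial transcripts, with medians of 17990 and 25324 UMIs and 13.2 and 12.2% mitochondrial UMIs in Tem1, and 14029.5 and 12374 UMIs and 16.1 and 16.7% in Tem6. The SDHA-KO cells of Tem1 had medians of 47898 and 46574 UMIs with 2.30 and 2.46% mitochondrial UMIs, and those of Tem6 had 31872 and 31623 UMIs with 1.32 and 1.19%. In Tem2 the medians were alike, at 71873.5 and 70954.5 UMIs in WT and 70251 and 72402 in SDHA-KO, with 2.98 and 2.75% against 2.46 and 2.50% mitochondrial UMIs. A comparison of genotypes inside Tem1 or Tem6 therefore also compared cells of unlike depth and mitochondrial share, and the part of these in the results was not tested.

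The SDHA-KO cells also carried gamma-delta receptor transcripts far more often. A Trdc UMI was found in 12 and 15 WT cells (6.12 and 6.22%) and in 146 and 113 SDHA-KO cells (51.0 and 48.7%). The means were 6.17% ± 0.0719 and 49.9% ± 1.66 (SD, n = 2 each). At 5000 UMIs per cell, drawn at random from each cell, they were 2.55 and 3.73% in WT and 25.2 and 26.3% in SDHA-KO, so the difference remained at equal depth. For comparison, CD4 class cells, which should lack the transcript, carried a Trdc UMI in 1.98 and 3.21% of WT and 10.1 and 8.64% of SDHA-KO cells, and in 1.31 and 1.16% and 3.95 and 4.34% after the same thinning. The median depth of those CD4 cells was 14753 and 14464 UMIs in WT and 23669 and 24651.5 in SDHA-KO. The share in SDHA-KO Tem cells was above this background at equal depth. At 5000 UMIs that in WT Tem cells was above the share in WT CD4 cells and below that in SDHA-KO CD4 cells. At 10000 UMIs the share in WT Tem cells was 5.64 and 3.43% and overlapped the 4.70 and 3.99% in SDHA-KO CD4 cells. Every Tem cell with a Trdc UMI also carried a UMI of Trac, Trbc1 or Trbc2, the alpha-beta receptor constant genes. These were 12 and 15 cells in WT and 146 and 113 in SDHA-KO. Whether the Trdc-carrying cells were gamma-delta T cells was not tested.

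Within the SDHA-KO Tem cells the Trdc UMIs were unevenly spread over sub-labels. They were found in 80.0 and 82.5% of Tem2 cells and in 81.3 and 78.6% of Tem3 cells. The share was 39.0 and 42.3% in Tem1, and 16.3 and 6.82% in Tem6. In WT every sub-label was at or below 12.5%. SDHA-KO Tem2 and Tem3 were thus mostly cells with a Trdc UMI, and SDHA-KO Tem6 was mostly cells without one. Cells with a Trdc UMI also carried a Cd8a or Cd8b1 UMI in 41.1 and 53.1% of cases in SDHA-KO, whereas 97.1 and 95.0% of the SDHA-KO cells without a Trdc UMI did, close to the 97.8 and 97.8% of WT. Leaving out the Trdc-carrying cells therefore gave a set with similar coreceptor detection in both genotypes, and the gene lists below are counted with and without them. That set still held unlike sub-labels: Tem2 gave 125 and 141 of its cells in WT and 15 and 11 in SDHA-KO. Tem1 gave 15 and 14 against 83 and 64, and Tem6 gave 9 and 17 against 36 and 41. A comparison of genotypes over that set thus also compares sub-labels, and the part of these was not tested. The summed level of the 14 gamma-delta markers was 24.8 and 20.2 UMIs per 1000000 UMIs of its cells (UPM) in WT and 259 and 254 in SDHA-KO, and 4.98 and 3.51 against 19.8 and 12.8 without the Trdc-carrying cells, so some gamma-delta transcript remained, and its part in the results was not tested.

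**Figure D1:**
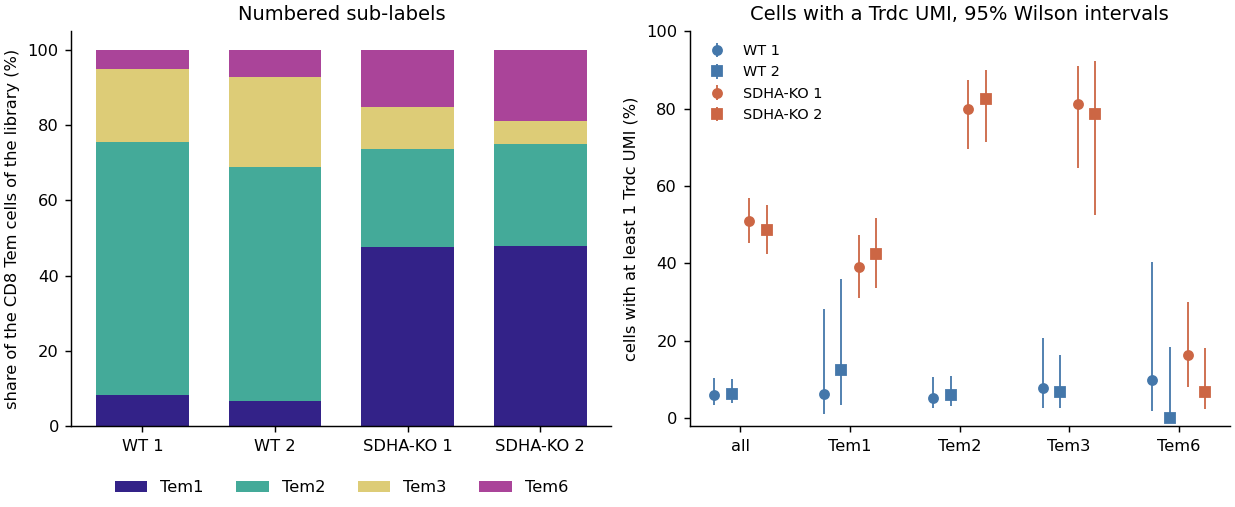
Left, the share of each sub-label (percent of the CD8 Tem cells of a library, stacked bars) in the 2 WT and 2 SDHA-KO libraries, where Tem2 fills 67.3 and 62.2% of the WT bars and Tem1 fills 47.6 and 47.8% of the SDHA-KO bars. Right, the percentage of cells with at least 1 Trdc UMI per library, over all Tem cells and by sub-label, with 95% Wilson intervals that cover counting error only; the SDHA-KO points of Tem2 and Tem3 lie between 78.6 and 82.5% and those of Tem6 at 16.3 and 6.82%.

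Sdha itself was lower in SDHA-KO, and more so without the Trdc-carrying cells. Its normalised level, in counts per 1000000 counts after TMM scaling (CPM), was 82.0 and 81.0 in WT and 48.0 and 46.8 in SDHA-KO. The log2 fold change was -0.78 (SE 0.07), with an adjusted p of 0.00081 by edgeR's quasi-likelihood test with Benjamini-Hochberg adjustment. Among cells without a Trdc UMI the levels were 82.8 and 82.0 against 28.6 and 27.4 CPM, a log2 fold change of -1.56 (adjusted p = 0.00013). Inside the SDHA-KO libraries, in UPM without further scaling, the cells with a Trdc UMI held 62.0 and 62.2 of Sdha and those without held 29.9 and 28.6. The WT cells with a Trdc UMI held 74.4 and 85.0. By sub-label the SDHA-KO effect was -0.90 in Tem1, -0.44 in Tem2 and -1.89 in Tem6, all called, and -0.32 in Tem3, which was not called. Tem2 and Tem3, with the smallest effects, were also the sub-labels with the largest share of Trdc-carrying cells. The 3′ counts do not show whether a transcript lacks the floxed part, and whether the Trdc-carrying cells had kept an intact allele was not tested. Sdhb, the iron-sulfur subunit, stood at 163 and 153 CPM in WT and 172 and 164 in SDHA-KO and did not pass the test (log2 fold change 0.09, adjusted p = 0.36).

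Of 12375 genes tested over all Tem cells, 4128 (33.4%) differed by genotype at an adjusted p under 0.05. They comprised 2111 genes (17.1%) that were higher and 2017 (16.3%) that were lower in SDHA-KO. With a change of at least 2-fold required (edgeR's glmTreat), 56 were higher (0.453%) and 83 lower (0.671%). Among cells without a Trdc UMI 3311 of 11676 genes (28.4%) differed, 1613 higher (13.8%) and 1698 lower (14.5%). The lists shared 2517 genes, which were 61.0% of the first and 76.0% of the second, and 2512 of them changed in the same direction. Counts of list members below are to be read against these percentages. Scaling by library size alone changed the split to 2867 higher and 1533 lower. Leaving out WT replicate 2 lowered the first count to 2309. Among cells with a Cd8a or Cd8b1 UMI and none of Trdc, Tcrg-C or Cd4, 3115 of 11328 genes differed (27.5%). By sub-label the calls were 2240 of 10174 genes in Tem1 (22.0%; 11.8% higher and 10.2% lower), 3628 of 11141 in Tem2 (32.6%; 17.0 and 15.6%), 2630 of 9209 in Tem3 (28.6%; 14.2 and 14.4%) and 2204 of 7792 in Tem6 (28.3%; 15.0 and 13.3%).

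Among genes at a mean of at least 20 CPM, the largest rises included secreted products and the largest falls included metabolic genes. Serpine2, a secreted inhibitor of serine proteases, was at 4.4 and 8.6 CPM in WT and 107 and 138 in SDHA-KO. The genotypes lay far apart, with a log2 fold change of 4.198 (SE 0.25, adjusted p = 0.00028), and the change was called in each of the 4 sub-labels. Il24, a cytokine of the IL-10 family, was at 4.2 and 16.7 against 160.8 and 56.6 CPM (log2 fold change 3.34, SE 0.64, adjusted p = 0.0084), with a wide spread in both genotypes. Espn, an actin-bundling protein, was at 30.9 and 41.1 against 6.1 and 5.3 CPM, a log2 fold change of -2.65 (SE 0.18, adjusted p = 0.00036). Abhd18, a little-studied hydrolase-like gene, was at 50.9 and 56.3 against 11.6 and 9.8 CPM, a log2 fold change of -2.32 (SE 0.12, adjusted p = 0.00018). Both falls were also called in every sub-label. In all, 269 genes were higher and 212 lower over all Tem cells and in each sub-label alike, of 7664 that could be tested in each.

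Igkc, an immunoglobulin light chain gene that T cells do not use, had the highest log2 fold change of all (10.72), and the change came from few cells. It had 1 UMI and none in WT, and 2484 and 33 UMIs in SDHA-KO, of which 2443 lay in a single Tem1 cell of replicate 1. The summed B cell markers were 66.0 and 58.2 UPM in WT and 237 and 68.8 in SDHA-KO, and 64.7 and 59.2 against 73.4 and 90.4 without the Trdc-carrying cells. The B cell surface gene Ms4a1 was at 0 in WT and in SDHA-KO replicate 1. Myeloid markers summed to at most 2.18 UPM in any library, with Lyz2, S100a8, S100a9 and C1qa at 0 in all. Natural killer cell markers summed to 2.35 and 3.54 UPM in WT and 32.4 and 21.3 in SDHA-KO. Klra8 was at 0 in every library, and the part of these transcripts in the results was not tested.

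Several granule genes, the machinery of killing, were higher in SDHA-KO. Of 18 tested members of 22 listed, 13 rose and none fell, and the median log2 fold change was 0.70 against -0.02 for all genes tested. Members such as Gzmc passed the low-count filter only through the SDHA-KO libraries and had to differ, so these counts describe the list and support nothing. Gzmb had 3398 and 4368 CPM in WT against 5979 and 5761 in SDHA-KO. The ranges did not overlap, and the log2 fold change was 0.60 (SE 0.11, adjusted p = 0.007). Limma on mean log values per cell did not call it, and neither did the fit without the Trdc-carrying cells, where the levels were 3417 and 4434 against 4060 and 3846 CPM and overlapped (log2 fold change 0.01, adjusted p = 0.95). Inside SDHA-KO the Trdc-carrying cells held 7398 and 7317 Gzmb UPM and the others 4250 and 4013. This did not hold inside Tem2, where the 15 and 11 SDHA-KO cells without a Trdc UMI held 7321 and 7039 Gzmb UPM, close to the 7783 and 7485 of those with one and above the 3435 and 4244 of WT Tem2 cells without one.

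Other granule genes also differed in how they split by Trdc. Prf1, which encodes the pore-forming perforin, was at 39.3 and 63.2 CPM in WT and 162 and 147 in SDHA-KO, a log2 fold change of 1.59 (SE 0.19, adjusted p = 0.0018). It stayed higher without the Trdc-carrying cells, at 41.7 and 59.8 against 97.7 and 98.1 CPM (log2 fold change 0.94, adjusted p = 0.0054). Gzmc (granzyme C) had 4 and 4 UMIs in WT and 2299 and 1522 in SDHA-KO, spread over 60 and 43 cells. It was higher in the SDHA-KO cells with a Trdc UMI (220 and 205 UPM) than in those without (36.6 and 6.22). Without the Trdc-carrying cells it was at 0.36 and 0.15 against 34.98 and 5.97 CPM, a difference that is a description only, as it had to differ. Serpinb9, which shields killer cells from their own granzyme B and was chosen after its values were seen, was at 67.7 and 68.2 CPM in WT and 249 and 243 in SDHA-KO. Its log2 fold change was 1.85 (SE 0.06, adjusted p = 6e-05), 1.96 without the Trdc-carrying cells, and it was called in every sub-label. Nkg7, a granule membrane protein also chosen after its values were seen, rose by 0.93 and, without the Trdc-carrying cells, by 1.34 on the log2 scale. Over the list, 11 of 18 genes still rose and none fell without the Trdc-carrying cells.

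Effector cytokines and chemokines rose as well. Several of these genes passed the low-count filter only through the SDHA-KO libraries and had to differ, so counts here describe the list and support nothing. Of 14 tested cytokines 10 rose and 1 fell, and of 7 tested chemokine ligands 6 rose. When the Trdc-carrying cells were left out, 6 of 13 cytokines rose and 1 fell, and all 7 chemokine ligands rose. Among cells with a Cd8a or Cd8b1 UMI and none of Trdc, Tcrg-C or Cd4, 3 of 10 cytokines rose and 1 fell. Ifng was at 408 and 850 CPM in WT and 3867 and 3102 in SDHA-KO. The lower SDHA-KO library was above the higher WT library, with a log2 fold change of 2.47 (SE 0.31, adjusted p = 0.0021). Ifng was unevenly held: the 10 highest cells carried 72.8 and 54.9% of its UMIs in WT and 46.9 and 53.4% in SDHA-KO. Unlike Gzmb it stayed higher in SDHA-KO without the Trdc-carrying cells, at 428 and 821 against 3851 and 2018 CPM (log2 fold change 2.23, adjusted p = 0.0047). In Tem6 alone the direction was the opposite, at -2.28, and there the WT value rests on the 10 and 17 shallow cells described above.

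Csf2, which encodes the growth factor GM-CSF, was at 1.4 and 12.5 CPM in WT and 65.0 and 66.5 in SDHA-KO, a log2 fold change of 3.17 (SE 0.55, adjusted p = 0.0062), and DESeq2 did not call it. In cells without a Trdc UMI Csf2 was at 1.36 and 13.2 against 58.9 and 88.2 CPM (3.26, adjusted p = 0.0071). Il13, a type 2 cytokine, was at 8.1 and 0.6 against 74.4 and 47.6 CPM, and 502 of its 611 UMIs in SDHA-KO replicate 2 lay in 1 cell. Il13 was at 6.3 and 0.61 against 105.3 and 99.2 CPM without the Trdc-carrying cells. Il22, a cytokine of innate-like and helper cells, was at 0 in both WT libraries and had 17 and 64 UMIs in SDHA-KO. That is at least 24.5-fold higher against a floor of 3 UMIs over the WT group, and the 64 UMIs came from a single cell. Ltb (lymphotoxin beta) moved the other way, at 330 and 283 CPM in WT and 78.8 and 126 in SDHA-KO. Its log2 fold change of -1.59 (SE 0.20, adjusted p = 0.0021) was called in each sub-label and without the Trdc-carrying cells (-1.87).

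The CC chemokines Ccl3, Ccl4 and Ccl5, which draw in other leukocytes, rose together. Ccl3 was at 128.5 and 100.0 CPM in WT and 558 and 927 in SDHA-KO, Ccl4 at 270 and 255 against 734 and 1576, and Ccl5 at 18.1 and 28.3 against 54.6 and 68.3. For each of them both SDHA-KO libraries were above both WT libraries. The log2 fold changes were 2.70 (SE 0.24, adjusted p = 0.00081), 2.14 (SE 0.31, adjusted p = 0.0035) and 1.39 (SE 0.20, adjusted p = 0.0034). In cells without a Trdc UMI Ccl3 rose by 2.76 and Ccl4 by 2.24, Ccl5 rose by 0.70 (adjusted p = 0.041; not called with WT replicate 1 or either SDHA-KO replicate left out), and Ccl3 was called in every sub-label.

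**Figure D2:**
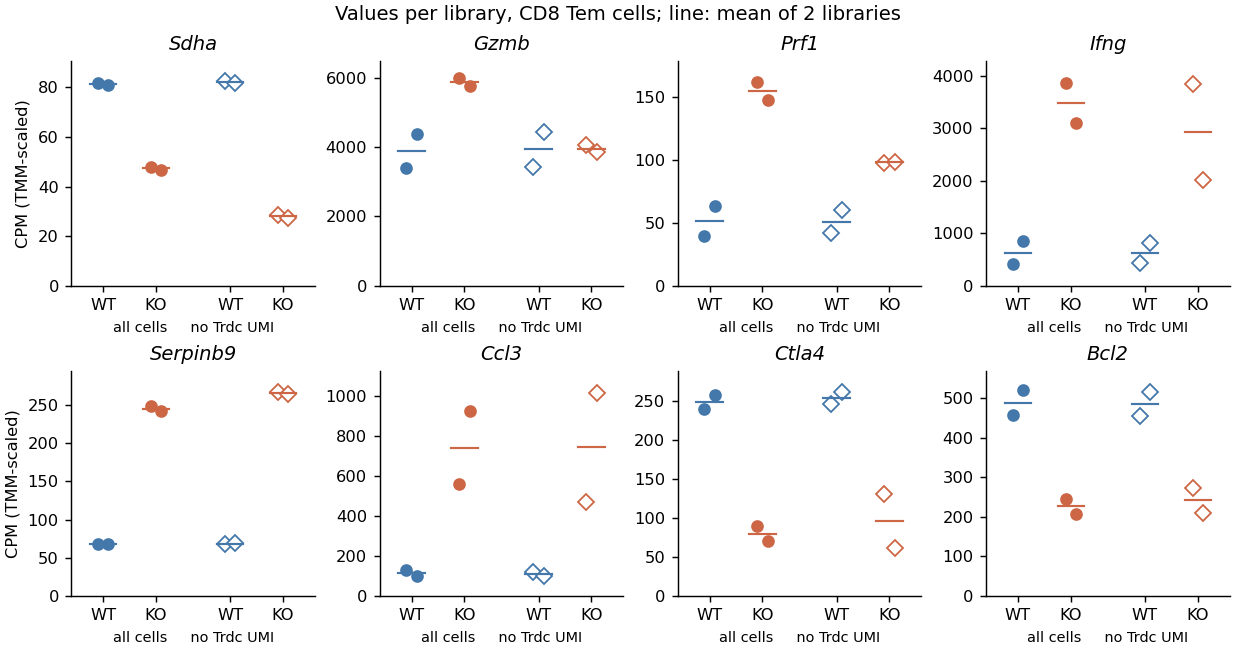
Normalised level (CPM, linear axes starting at 0) of Sdha, Gzmb, Prf1, Ifng, Serpinb9, Ccl3, Ctla4 and Bcl2 in each of the 2 WT and 2 SDHA-KO libraries, over all CD8 Tem cells (filled points) and over those without a Trdc UMI (open diamonds), with a line at the mean of 2 libraries. The open Gzmb points overlap between genotypes (3417 and 4434 against 4060 and 3846 CPM), whereas those of the other genes shown do not.

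Receptors changed in both directions (values in parentheses are the log2 fold change of SDHA-KO against WT with its standard error and adjusted p by edgeR). Of 13 inhibitory receptors 4 rose and 1 fell, and of 13 costimulatory genes 4 rose and 2 fell. The counts without the Trdc-carrying cells were 6 of 12 inhibitory receptors and 7 of 12 costimulatory genes higher and 1 of each lower. Pdcd1 (PD-1) was at 13.8 and 12.04 CPM in WT and 33.9 and 49.3 in SDHA-KO, a log2 fold change of 1.69 (SE 0.19, adjusted p = 0.0015). Havcr2 (TIM-3), low in both genotypes, was at 1.1 and 3.0 against 19.6 and 17.9 CPM (3.14, SE 0.32, adjusted p = 0.001). Both were also called without the Trdc-carrying cells (1.83 and 2.85). Ctla4, the competitor of CD28 for its ligands, went the other way. It was at 240 and 258 CPM in WT and 88.8 and 69.8 in SDHA-KO, and its log2 fold change of -1.65 (SE 0.12, adjusted p = 0.0004) was called in all 4 sub-labels and, at -1.38, without the Trdc-carrying cells. Inhibitory receptors thus did not move as a group. Tnfsf4, the ligand of OX40, was low in WT and passed the low-count filter through the SDHA-KO libraries. Its values therefore describe the gene and support nothing. It rose from 0.4 and 1.3 to 8.3 and 9.9 CPM (3.37, SE 0.38), and Icos fell from 72.2 and 61.7 to 39.3 and 35.9 CPM (-0.83, SE 0.10, adjusted p = 0.0019). With the Trdc-carrying cells left out the Tnfsf4 change was 4.18, again a description only. That of Icos was -0.59 and called, although it was not when WT replicate 1 or SDHA-KO replicate 2 was left out as well. Tnfrsf9, a marker of these cells, was at 428 and 603 against 518 and 545 CPM and overlapped between genotypes (0.04, adjusted p = 0.84).

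Several genes that the annotation uses to tell memory subsets apart differed little. Itga4 (an integrin chain for entry into tissues) was at 32.9 and 32.3 CPM in WT and 32.9 and 46.7 in SDHA-KO, and Il7r (the interleukin 7 receptor) at 38.1 and 47.0 against 68.4 and 45.4. Tcf7, a factor of stem-like memory cells, was at 58.6 and 42.7 against 41.5 and 43.6 CPM. None of these 3 passed the test. Ccr7, the lymph node homing receptor, was lower in SDHA-KO, at 219 and 239 against 129 and 170 CPM (-0.62, SE 0.13, adjusted p = 0.011). Leaving out WT replicate 2 ended that call (-0.55). Without the Trdc-carrying cells the Ccr7 levels overlapped (223 and 237 against 221 and 267 CPM). Inside Tem2, however, the cells without a Trdc UMI held 210 and 203 Ccr7 UPM in WT and 101 and 71.6 in SDHA-KO. Cd44, the memory and activation marker, was higher at 86.4 and 91.4 against 115.5 and 151 CPM (0.58, SE 0.13, adjusted p = 0.013), and more so without the Trdc-carrying cells (1.08, adjusted p = 0.00082). Inside Tem2 the cells without a Trdc UMI lay closer, at 74.1 and 89.1 Cd44 UPM in WT and 98.0 and 91.6 in SDHA-KO. Leaving out WT replicate 1 (0.55) or WT replicate 2 (0.63) ended the call over all cells.

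Of 15 effector transcription factors 6 rose and 1 fell, and of 14 memory and quiescence factors 1 rose and 7 fell. The effector factors gave the same counts without the Trdc-carrying cells. Batf, a factor of effector differentiation, was at 43.1 and 45.6 CPM in WT and 121.8 and 78.3 in SDHA-KO, and its rise of 1.18 (SE 0.19, adjusted p = 0.0051) was of the same size without the Trdc-carrying cells (1.13). Tbx21 (T-bet) rose by 0.58 (SE 0.10, adjusted p = 0.006) over all cells, but without the Trdc-carrying cells it was at 32.1 and 27.8 against 30.01 and 31.3 CPM. Lef1, a factor of naive and memory cells, fell by 0.35 over all cells and stood at 146 and 135 against 129 and 134 CPM without the Trdc-carrying cells, so the lower count of memory factors was also smaller there (2 of 14 fell). Bach2, a repressor of effector genes, was at 215 and 234 against 275 and 369 CPM (0.52, SE 0.13, adjusted p = 0.025; 0.46 without WT replicate 1 and 0.58 without WT replicate 2, neither of them called). In cells without a Trdc UMI it was at 223 and 233 against 481 and 591 CPM (1.23, adjusted p = 0.00033). Inside Tem2, however, the cells without a Trdc UMI held 181 and 173 Bach2 UPM in WT and 82.0 and 153 in SDHA-KO. The Bach2 effect was of opposite sign in Tem2 (-0.69), Tem3 (-1.13) and Tem6 (0.94), each called.

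Receptor genes of gamma-delta and natural killer cells were higher over all SDHA-KO cells. Trdc, a measure of the same transcript by which the cells were split, was at 8.0 and 9.2 CPM in WT and 105 and 109 in SDHA-KO (3.63, SE 0.10, adjusted p = 2.1e-05), and Tcrg-C1 was at 1.3 and 0.9 against 15.99 and 13.4. All 6 tested gamma-delta receptor genes rose, as did 7 of 8 natural killer receptor genes. Among cells lacking a Trdc UMI 2 of 3 tested gamma-delta receptor genes and 3 of 7 natural killer receptor genes rose and none fell, with a median log2 fold change of 0.97 for the natural killer list against 2.12 over all cells. Members of both lists that are near 0 in WT passed the filter only through SDHA-KO, so these counts describe the lists and support nothing. Klrd1 (CD94), which pairs with NKG2 receptors, was at 23.1 and 32.0 against 66.2 and 87.2 CPM (1.47, SE 0.18, adjusted p = 0.0019) and remained higher without the Trdc-carrying cells (1.52). Klrc1 (NKG2A), its partner, was at 2.5 and 4.8 against 23.0 and 19.2 CPM (2.51, SE 0.26, adjusted p = 0.0011), and without the Trdc-carrying cells at 2.3 and 4.7 against 14.3 and 9.9 CPM (1.77, adjusted p = 0.01). Cd8a was at 137 and 141 CPM in WT and 85.1 and 117 in SDHA-KO (-0.47, SE 0.14, adjusted p = 0.039), a call that did not hold without WT replicate 1 (-0.48), without WT replicate 2 (-0.44) or without SDHA-KO replicate 1 (-0.23). Without the Trdc-carrying cells Cd8a was at 143 and 148 against 158 and 210 CPM (0.34, adjusted p = 0.09).

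Genes induced by HIF were lower in SDHA-KO throughout. Of 20 listed HIF target genes 18 were tested, and all 18 fell, with a median log2 fold change of -1.69. Egln3, a prolyl hydroxylase that is itself induced by HIF, was at 139.5 and 169 CPM in WT and 30.7 and 21.04 in SDHA-KO (-2.57, SE 0.17, adjusted p = 0.00039). Bnip3, a receptor for the removal of mitochondria, was at 153 and 188 against 42.5 and 14.7 CPM (-2.55, SE 0.39, adjusted p = 0.0039). Gbe1, the glycogen branching enzyme, was at 72.7 and 84.0 against 14.3 and 13.9 CPM (-2.48, SE 0.10, adjusted p = 0.00012), and Ndrg1, a stress-induced gene, at 42.5 and 50.4 against 8.5 and 6.7 (-2.60, SE 0.15, adjusted p = 0.00026). Ddit4, an inhibitor of mTORC1, was at 82.4 and 103 against 22.8 and 16.6 CPM (-2.22, SE 0.17, adjusted p = 0.0005). For each of these genes the genotypes were well apart in every library. Without the Trdc-carrying cells 18 of 19 tested members fell (median -1.56), and by sub-label 18 fell in Tem2, 18 in Tem3, 15 in Tem1 and 12 in Tem6. Unlike Sdha, Egln3 was low in SDHA-KO cells with a Trdc UMI (34.8 and 26.8 UPM) and without one (26.9 and 14.6), while WT cells held 172 and 229 with and 131 and 160 without.

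HIF binds DNA at hypoxia response elements with the core ACGTG, and the promoters of genes from this list are shown because these genes fell together. The 250 bases before the annotated start are from RefSeq on GRCm38.p6, read in the direction of transcription, and each match to ACGTG on either strand is in capitals (the palindrome CACGTG in Bnip3 matches on both strands). P4ha2, a collagen prolyl hydroxylase at 12.8 and 14.3 CPM in WT and 2.9 and 2.7 in SDHA-KO, was chosen after its values were seen.
Egln3, chr12:54203875-54204124, minus strand: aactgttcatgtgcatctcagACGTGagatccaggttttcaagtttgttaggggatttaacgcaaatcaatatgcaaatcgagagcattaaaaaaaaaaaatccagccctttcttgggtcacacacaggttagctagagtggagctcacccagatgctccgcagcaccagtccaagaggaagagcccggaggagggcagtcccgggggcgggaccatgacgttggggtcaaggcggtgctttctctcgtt
Bnip3, chr7:138909507-138909756, minus strand: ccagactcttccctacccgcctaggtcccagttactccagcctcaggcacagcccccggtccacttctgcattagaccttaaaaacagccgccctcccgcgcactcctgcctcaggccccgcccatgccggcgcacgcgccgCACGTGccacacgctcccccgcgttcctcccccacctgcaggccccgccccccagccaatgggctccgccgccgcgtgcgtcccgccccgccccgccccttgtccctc
P4ha2, chr11:54100674-54100923, plus strand: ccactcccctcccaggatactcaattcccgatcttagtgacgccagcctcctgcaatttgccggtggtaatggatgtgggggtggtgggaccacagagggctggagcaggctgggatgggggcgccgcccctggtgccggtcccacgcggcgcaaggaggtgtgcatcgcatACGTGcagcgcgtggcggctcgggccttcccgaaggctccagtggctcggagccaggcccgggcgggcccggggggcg
Gbe1, chr16:70313699-70313948, plus strand: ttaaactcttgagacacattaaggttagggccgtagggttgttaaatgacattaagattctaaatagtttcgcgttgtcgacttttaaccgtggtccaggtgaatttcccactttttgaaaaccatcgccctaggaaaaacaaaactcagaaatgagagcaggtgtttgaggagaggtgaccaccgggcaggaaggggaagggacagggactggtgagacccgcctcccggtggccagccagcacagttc

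The motif lay 229 bases before the start in Egln3, at 108 and 107 in Bnip3 and at 78 in P4ha2, and the Gbe1 window held none although the gene fell as far as the others. Of the 20 listed HIF target genes 17 had a promoter entry, tested or not, and 12 of these (70.6%) held the motif in at least 1 window, against 18.5% of all 27025 genes and 16.6% of all 32851 promoters in the table. In Bnip3, 13 bases of the window overlap an annotated exon. A match describes the letters only and shows no binding.

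Glycolytic genes, many of them also controlled by HIF, fell as well. Of 19 enzymes 16 fell and 1 rose, with a median log2 fold change of -0.75. Aldoc, an aldolase isozyme, had the steepest fall, at 19.9 and 23.9 CPM in WT and 1.4 and 0.7 in SDHA-KO (-4.34, SE 0.25, adjusted p = 0.00027). Gapdh, chosen after its values were seen as an abundant enzyme of the pathway, was at 5684 and 5712 against 3439.5 and 2889 CPM (-0.85, SE 0.08, adjusted p = 0.00093), and Hk1, a hexokinase, at 66.9 and 76.5 against 44.6 and 39.0 (-0.78, SE 0.10, adjusted p = 0.0024). The glucose transporter Slc2a3 was at 154 and 219 against 54.9 and 35.3 CPM (-2.04, SE 0.23, adjusted p = 0.0014), and Slc2a1 at 82.7 and 96.5 against 52.4 and 44.2 (-0.89, SE 0.11, adjusted p = 0.0021). As a share of all UMIs the enzymes took 1.59 and 1.66% in WT and 1.13 and 0.931% in SDHA-KO, with no overlap. The exception was Ldhb, the lactate dehydrogenase subunit that favours lactate use, which rose from 14.0 and 12.6 to 19.6 and 24.9 CPM (0.74, SE 0.15, adjusted p = 0.0094; 0.67 and not called without WT replicate 2). Ldhb rose by 1.51 without the Trdc-carrying cells, but in Tem2 its effect was -0.79. The list was lower without the Trdc-carrying cells too (15 of 19 fell, median -0.998), whereas in Tem6 3 fell and 2 rose of 16 tested.

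**Figure D3:**
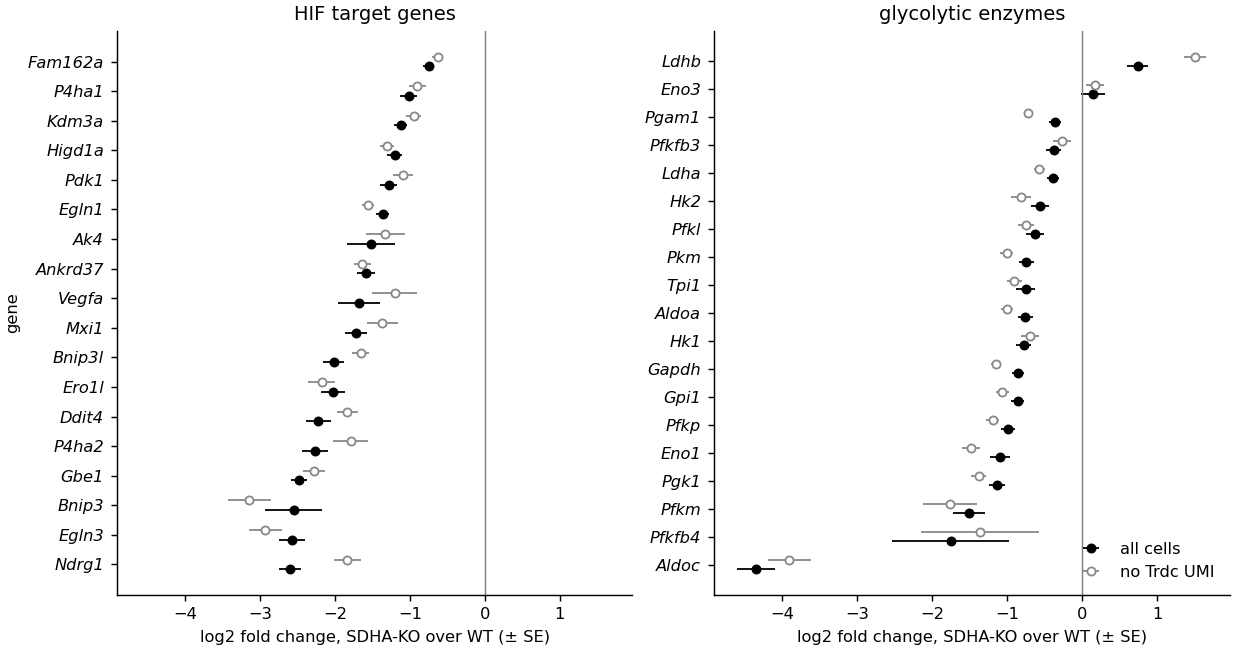
Log2 fold change of SDHA-KO against WT with its standard error (points and bars, from edgeR) for the 18 tested HIF target genes and the 19 glycolytic enzymes, over all CD8 Tem cells (filled) and those without a Trdc UMI (open). All HIF target genes lie below 0 over all cells, from -2.60 (Ndrg1) to -0.75 (Fam162a), and among the glycolytic enzymes only Ldhb was called above 0 (0.74).

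Mitochondrially encoded transcripts were lower in SDHA-KO, while the nuclear genes for the same complexes showed no common direction. Transcripts of all 13 mitochondrially encoded proteins were measured, and 12 fell and none rose, with a median log2 fold change of -0.59 over all cells and -0.91 without the Trdc-carrying cells (12 fell). mt-Nd6, the complex I subunit on the light strand, was at 79.2 and 82.9 CPM in WT and 42.5 and 34.5 in SDHA-KO (-1.07, SE 0.11, adjusted p = 0.001). mt-Co1, the catalytic subunit of complex IV and chosen after its values were seen as an abundant member, was at 6320 and 6509 against 3546 and 3607 (-0.84, SE 0.04, adjusted p = 0.00019). mt-Nd1 was at 2114 and 1845 against 2073 and 2121 CPM and overlapped (0.08, adjusted p = 0.4). In sum the 13 transcripts took 3.47 and 3.26% of UMIs in WT and 2.49 and 2.52% in SDHA-KO. In Tem3 the list went the other way, with 5 higher and 2 lower, and in Tem1 and Tem6, where the WT cells were the mitochondria-rich ones described above, all 13 were lower.

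Of 37 nuclear complex I subunits 4 rose and 7 fell (median 0.01), and of 36 nuclear subunits of complexes III, IV and ATP synthase 3 rose and 8 fell (median -0.09). Both shares are at or below the 33.4% of all genes. Leaving out the Trdc-carrying cells gave 5 that rose and 2 that fell in the first list and 3 and 7 in the second. Ndufv3, an accessory subunit, stood out with 312 and 330 CPM in WT and 120 and 109 in SDHA-KO (-1.49, SE 0.07, adjusted p = 0.00018), and Ndufb10, a membrane-arm subunit, with 206 and 187 against 278 and 289 (0.53, SE 0.07, adjusted p = 0.0024). Both changes were called in each sub-label and without the Trdc-carrying cells. The nuclear subunits rose more often inside Tem1 (18 of 37 complex I subunits, 1 fell) and Tem6 (26 rose, 1 fell). Of 19 TCA cycle enzymes other than succinate dehydrogenase 1 rose and 3 fell (median -0.02), and the counts without the Trdc-carrying cells were the same.

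Sterol and fatty acid synthesis genes were lower. Of 22 tested members 19 fell and 1 rose, with a median of -0.85, and -1.26 without the Trdc-carrying cells (19 fell). Hmgcs1, an early enzyme of cholesterol synthesis, was at 127 and 127 CPM in WT and 44.4 and 39.6 in SDHA-KO (-1.60, SE 0.08, adjusted p = 0.00018). Scd1, which desaturates fatty acids, was at 32.8 and 33.2 against 8.7 and 4.7 CPM (-2.27, SE 0.23, adjusted p = 0.001). Both falls were called in each sub-label. Fasn, the fatty acid synthase, was the member that rose, at 62.8 and 48.9 against 86.4 and 79.5 CPM (0.58, SE 0.12, adjusted p = 0.012), and without the Trdc-carrying cells it did not pass (0.24, adjusted p = 0.24).

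Genes of the integrated stress response, which cells raise when amino acids or mitochondrial function fall short, were lower where they passed the test. Of 19 tested members 10 fell and none rose, with or without the Trdc-carrying cells. Ddit3 (CHOP) was at 45.3 and 43.3 CPM in WT and 7.7 and 6.7 in SDHA-KO (-2.61, SE 0.11, adjusted p = 0.00012), and Asns, which makes asparagine from aspartate, at 109 and 89.7 against 43.0 and 27.9 (-1.47, SE 0.19, adjusted p = 0.0023). Genes of Myc and ribosome biogenesis went up: 14 of 17 rose and none fell, with a median of 0.51. Srm, the spermidine synthase, was at 217 and 177 against 461 and 462 CPM (1.23, SE 0.10, adjusted p = 0.00056), and Odc1, the entry enzyme of polyamine synthesis, at 303 and 274 against 401 and 394 (0.46, SE 0.07, adjusted p = 0.0036). Ncl (nucleolin) rose by 0.43 (SE 0.06, adjusted p = 0.0039) over all cells but was at 2533 and 2215 against 2533 and 2502 CPM without the Trdc-carrying cells, where 11 of 17 genes rose and 1 fell. Srm rose in every sub-label.

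Cell cycle genes differed between the fits with and without the Trdc-carrying cells, and also between sub-labels. Over all cells 4 of 21 S phase genes rose and 2 fell, and 7 of 21 mitosis genes rose and 7 fell. In cells without a Trdc UMI none of the S phase genes rose and 12 fell (median -0.34), and 1 of the mitosis genes rose and 12 fell (median -0.56). By sub-label, with all cells of each, 3 S phase genes rose in Tem1, 9 in Tem2 and 7 in Tem3, and none fell. In Tem6, 1 rose and 2 fell. Of the mitosis genes 4 rose and none fell in Tem1, and 9 rose and 2 fell in Tem2. In Tem3, 5 rose and 6 fell, and in Tem6 16 of 19 tested fell and none rose. Top2a, a topoisomerase of dividing cells, was at 379 and 356 CPM in WT and 274 and 250 in SDHA-KO (-0.49, SE 0.07, adjusted p = 0.0034) and at 379 and 356 against 217 and 197 without the Trdc-carrying cells (-0.83, adjusted p = 0.00058). Mki67, the proliferation marker, was at 201 and 218 against 161 and 142 CPM (-0.47, SE 0.08, adjusted p = 0.0071), and Bub1, a spindle checkpoint kinase, at 44.7 and 45.6 against 25.3 and 27.9 (-0.76, SE 0.09, adjusted p = 0.0016). Cdc20, an activator of the anaphase-promoting complex, rose by 0.63 over all cells (SE 0.07, adjusted p = 0.0016) and was at 80.7 and 75.4 against 74.6 and 92.1 CPM without the Trdc-carrying cells. Inside SDHA-KO Tem2, however, Cdc20 was alike in cells with a Trdc UMI (183 and 167 UPM) and without one (189 and 159). Inside the SDHA-KO libraries all 21 S phase and all 21 mitosis genes were higher in the cells with a Trdc UMI than in those without, in both replicates. A cell with more UMIs is more likely to show a Trdc UMI, so depth and this split go together. The split also goes with the sub-labels, since Trdc UMIs were most frequent in SDHA-KO Tem2 and Tem3. The part of depth and of sub-label was not tested.

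Genes of survival and cell death also differed. Of 20 tested members of the Bcl-2 family and death list 7 rose and 1 fell, and 12 rose and 1 fell without the Trdc-carrying cells. The member that fell was Bcl2, the main survival factor of resting T cells, at 457 and 520 CPM in WT and 245 and 207 in SDHA-KO (-1.11, SE 0.10, adjusted p = 0.00082). Its fall was called in each sub-label and without the Trdc-carrying cells (-1.01). Bcl2l1 (Bcl-xL), the survival factor of activated T cells, rose from 71.0 and 72.3 to 96.9 and 104 CPM (0.49, SE 0.07, adjusted p = 0.0035). Phlda3, a p53 target that restrains AKT, was at 12.2 and 9.9 against 46.2 and 55.6 CPM (2.21, SE 0.14, adjusted p = 0.00036), and 3.03 without the Trdc-carrying cells. Bax, a death effector chosen after its values were seen, rose by 1.05 (SE 0.07, adjusted p = 0.0004) from 203 and 199.6 to 394 and 442 CPM. The list thus held a lower Bcl2 beside a higher Bcl2l1 and Bax in the same libraries.

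**Figure D4:**
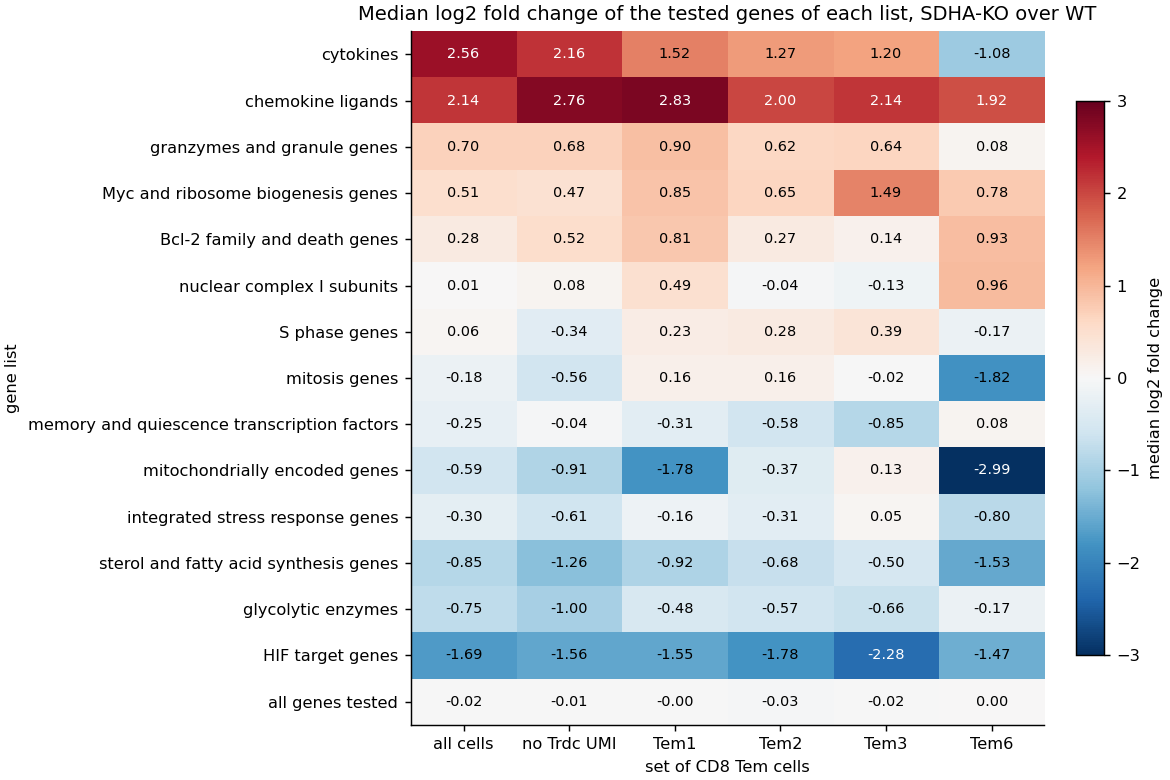
Median log2 fold change of SDHA-KO against WT (colour, from -3 to 3) over the tested members of 14 gene lists and over all genes tested, in all CD8 Tem cells, in those without a Trdc UMI and in each sub-label. The HIF target row is negative in every column, while the mitochondrially encoded row runs from -2.99 in Tem6 to 0.13 in Tem3.

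The sub-labels also differed in direction. Among genes called in both Tem2 and Tem6, 910 changed in the same direction and 217 in opposite directions. Prf1 was among the latter, at 2.15 in Tem2 and -1.05 in Tem6, and so was Gzmb, at 0.95 and -1.10. These values set SDHA-KO Tem2, mostly cells with a Trdc UMI, against deep WT cells, and SDHA-KO Tem6, mostly cells without one, against shallow and mitochondria-rich WT cells. No test of the difference between sub-labels was run.

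CD8 central memory cells (Tcm) were the other large CD8 subset after stimulation, with 1630 cells and 3358 of 12051 genes called (27.9%; 14.4% higher and 13.5% lower), and a test of the difference asked which SDHA-KO effects were particular to Tem. Of 13395 genes 25 (0.187%) had an effect in Tem that differed from that in Tcm at an adjusted p under 0.05 (edgeR interaction term with library as a block), 19 with the difference above 0 (0.142%) and 6 below (0.0448%). At an unadjusted p under 0.05 there were 1744. Tnfsf8 (CD30 ligand) was at 45.4 and 37.4 CPM in WT Tem and 95.4 and 111 in SDHA-KO Tem, and at 129 and 135 against 143 and 166 in Tcm, a difference of 1.13 in log2 fold change (SE 0.14, adjusted p = 0.022). Pdcd1lg2 (PD-L2) rose by 1.39 in Tem and was at 40.0 and 39.4 against 50.3 and 50.1 CPM in Tcm (difference 1.07, SE 0.16, adjusted p = 0.041). Rgs16, a brake on chemokine receptor signals, rose by 1.13 in Tem and was at 28.1 and 28.1 against 20.8 and 33.4 CPM in Tcm (difference 1.25, SE 0.19, adjusted p = 0.041). Bad, a death-promoting relative of Bcl-2, rose in Tcm from 9.0 and 9.0 to 43.3 and 30.7 CPM and was at 26.8 and 17.2 against 26.1 and 21.7 in Tem (difference -1.88, SE 0.23, adjusted p = 0.022). Among genes named above, the effect on Cd8a was less negative in Tem by 1.04 and that on Prf1 was larger in Tem by 0.93 (adjusted p = 0.032).

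The Tcm cells of SDHA-KO held even more Trdc-carrying cells, 69.3 and 66.5% against 2.93 and 4.38% in WT. Without the Trdc-carrying cells of both subsets 1 gene was called, H2-Ab1, against 2410 at an unadjusted p under 0.05. The other differences just named all lost their call there but kept their sign. They were 1.33 for Tnfsf8, 0.87 for Pdcd1lg2, 1.47 for Rgs16, -1.99 for Bad and 0.79 for Cd8a, with adjusted p values from 0.076 to 0.13 by edgeR. The Prf1 difference was 0.77, with an adjusted p of 0.35 by edgeR. H2-Ab1, a class II antigen presentation gene, was at 44.4 and 66.1 CPM in WT Tem and 12.6 and 2.3 in SDHA-KO Tem, and at 25.7 and 35.0 against 80.6 and 1.35 in Tcm. Its difference of -3.23 rested on SDHA-KO replicate 1, without which it was -0.14. Leaving out WT replicate 2 lowered the count of 25 to 3, all with the difference below 0, and leaving out SDHA-KO replicate 1 or 2 raised it to 669 or 885. Of the 10 genes with the largest differences 9 were not called without WT replicate 2, among them Tnfsf8 (0.95), Pdcd1lg2 (1.21), Rgs16 (1.45) and H2-Ab1 (-3.09), and Bad (-2.18) was. Without WT replicate 1, 4 of the 10 were not called, among them those of Pdcd1lg2 (0.96) and Rgs16 (1.08) without WT replicate 1.

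**Figure D5:**
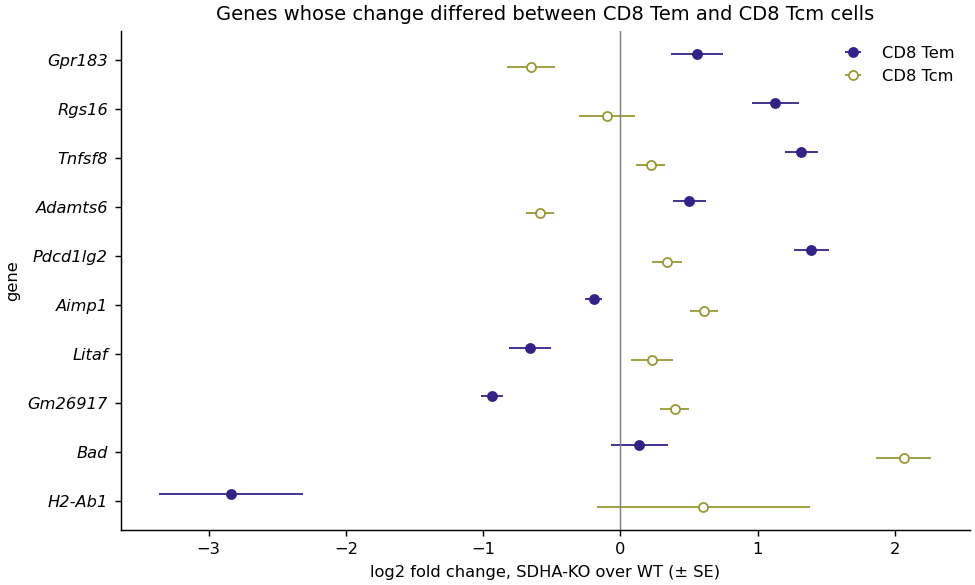
Log2 fold change of SDHA-KO against WT with its standard error for the 10 genes with the largest called differences between subsets, in CD8 Tem cells (filled) and CD8 Tcm cells (open). Tnfsf8, Rgs16 and Pdcd1lg2 lie above 1 in Tem (1.32, 1.13 and 1.39), and Bad lies at 2.06 in Tcm and 0.14 in Tem.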

How the data were processed

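The authors deposited UMI counts of 20170 genes in 12846 cells from 10x Genomics 3′ HT v3.1 libraries, made with bcl2fastq and Cell Ranger on mm10 (versions not given in the sources used here). They also deposited a percent of mitochondrial UMIs, a log10 ratio of Cd4 to Cd8a and a subset label for each cell. They had removed cells above a cap on detected genes and clusters without Cd3 transcripts. No further cell filter and no doublet caller was applied.

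Counts were summed per library over the 955 cells, giving 12325554 to 15418556 UMIs per sum. Sums were tested with edgeR 4.0.16 (quasi-likelihood, TMM, filterByExpr with a minimum count of 10 and total of 15, Benjamini-Hochberg over all genes tested, called under 0.05) in R 4.3.3. The subset comparison tested the interaction of genotype and subset with library as a block. The alternatives were DESeq2 1.42.0, limma 3.58.1, other scaling, filters, depths and cell sets, and leaving out each library. On simulated sums of 12352 genes with known changes, 96% of 2-fold rises and 96% of 2-fold falls were recovered in the comparison of all Tem cells. For the difference between Tem and Tcm, 74% of 2-fold rises and 64% of 2-fold falls were recovered. Replicate numbers did not pair the libraries (correlation of deviations -0.0602). Intervals are 95% Wilson intervals and cover counting error only. Thinning, shares and figures used Python 3.11.15, numpy 2.4.6, scipy 1.17.1, pandas 2.3.3 and matplotlib 3.10.9.

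The cells and the 34 gene lists were chosen with earlier results of these data known. The named genes were the given markers and annotation genes, Sdha, the 10 largest called rises and falls at a mean of at least 20 CPM with non-overlapping genotypes, up to 4 members per list (the largest called changes and the first listed), and the 5 largest called differences between subsets in each direction at that level. Serpinb9, Nkg7, Gapdh, P4ha2, mt-Co1 and Bax were added after their values were seen. Of the genes that the rule allows, those the text describes were picked with their values known. Some genes that the rule names are not reported here.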

Additional observations from a re-analysis of the deposited data

Results flagged for a closer look

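The effect of SDHA-KO differed between CD8 Tem and CD8 Tcm cells for 25 genes, by the test of the difference itself (edgeR interaction term with library as a block, adjusted p under 0.05). The 10 of them named by the rule were flagged for that difference, given here as the log2 fold change in Tem minus that in Tcm. It was below 0 for H2-Ab1 (-3.23), Bad (-1.88), Gm26917 (-1.30), Litaf (-0.87) and Aimp1 (-0.77), and above 0 for Gpr183 (1.26), Rgs16 (1.25), Tnfsf8 (1.13), Adamts6 (1.10) and Pdcd1lg2 (1.07). Without WT replicate 2 the difference of Bad alone among these 10 was still called, and without WT replicate 1 those of Rgs16, Pdcd1lg2, Litaf and Aimp1 were not. Without the Trdc-carrying cells that of H2-Ab1 alone was called, and all 10 kept their sign. In Gpr183, a receptor that positions lymphocytes by oxysterols, the level was 18.3 and 18.8 CPM in WT Tem and 32.7 and 21.7 in SDHA-KO Tem, against 72.6 and 63.6 and 50.6 and 33.9 in Tcm. Adamts6, a secreted metalloprotease, rose in Tem (0.50) and fell in Tcm (-0.59), both called, the first not when either WT replicate was left out. Inside Tem1, Tem2 and Tem3, however, the Adamts6 effect was below 0, and only Tem6 kept the direction. Adamts6 was at 58.5 and 62.3 UPM in WT Tem2 and 30.9 and 52.1 in SDHA-KO Tem2. In Tem6 it was at 285 and 196 against 326 and 393 UPM. The Tnfsf8 effect was also below 0 inside Tem2 and Tem3. The part of the sub-labels was not tested. Gm26917, a noncoding RNA, fell in Tem (-0.93) and rose in Tcm (0.40), both called. Aimp1, a scaffold of aminoacyl-tRNA synthetases, was at 280 and 263 against 235 and 240 CPM in Tem, where it did not pass, and rose by 0.61 in Tcm. Litaf fell by 0.66 in Tem (not called without WT replicate 1) and was at 62.2 and 58.4 against 60.6 and 83.5 CPM in Tcm. The share of cells with a Trdc UMI differed between the subsets of SDHA-KO, and its part in these differences was not tested beyond the fit without those cells. Depth per cell and mitochondrial share also differed between Tem and Tcm, and their part was not tested.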

How the results depend on the processing

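Over all Tem cells the 4128 calls became 2758 with DESeq2, 4178 with its size factors in edgeR, 4832 without the filter on low counts, 3355 with a replicate block, 2240 in Tem1, 3628 in Tem2, 2630 in Tem3, 2204 in Tem6, 139 with a 2-fold change required, and 2309 to 3502 with 1 library left out. The sub-labels hold fewer cells and the 2-fold rule is stricter by construction, and the cause of the other differences was not tested. Without the Trdc-carrying cells the 3311 calls became 2067 with DESeq2, 3751 with library size alone, 3124 with the replicate block, and 1758 to 2333 with 1 library left out (2006 without WT replicate 1, 1991 without SDHA-KO replicate 2). The 25 differences between Tem and Tcm became 82 with DESeq2, 10 with its size factors, 47 with library size alone, 532 without the filter, 55 with thinned sums, 3 to 885 with 1 library left out, and 1 without the Trdc-carrying cells; the cause was not tested. The difference in the Trdc share was 43.7 percentage points, 22.6 and 32.7 when thinned to 5000 and 10000 UMIs, 45.0 with a Trdc or Tcrg-C UMI, and 42.5 to 44.9 with 1 library left out. The difference in the Tem share was 28.4 to 34.1 points.

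Of 85 named genes, 83 kept direction and call with DESeq2, all 85 with the replicate block, 78 without WT replicate 1, 74 without WT replicate 2, 83 without either SDHA-KO replicate and 73 without the Trdc-carrying cells. Calls lost were those of Cd8a, Cd44, Bach2, Igkc, Adamts6 and Litaf without WT replicate 1, and of Cd8a, Cd44, Ccr7, Il22, Bach2, Ldhb, H2-Ab1, Igkc and Adamts6 without WT replicate 2. Log2 fold changes of the opposite sign were those of Cd8a (0.34) and Ccr7 (0.083) without the Trdc-carrying cells, and of Cd8a (0.43), Gzmb (-0.17), Ccr7 (0.14) and Cdc20 (-0.11) in cells with a Cd8a or Cd8b1 UMI and none of Trdc, Tcrg-C or Cd4. In Tem1 they were Bach2 (-0.31), mt-Nd1 (-1.10), Adamts6 (-0.71) and Litaf (0.84). In Tem2 they were Bach2 (-0.69), Ldhb (-0.79), Tnfsf8 (-0.23) and Adamts6 (-0.58). In Tem3 they were Tnfrsf9 (-0.74), Il13 (-0.074), Bach2 (-1.13), Ldhb (-0.33), Tnfsf8 (-0.021), Adamts6 (-0.63) and Gm26917 (0.17). In Tem6 they were Cd8a (0.038), Gzmb (-1.10), Ifng (-2.28), Tnfrsf9 (-0.94), Cd44 (-0.20), Ccr7 (0.13), Prf1 (-1.05), Icos (0.14), Tbx21 (-1.51), mt-Nd1 (-1.75), Gapdh (0.15), Cdc20 (-1.49) and Bcl2l1 (-0.38). The cause of these was not tested. With 2 libraries per genotype small changes can be missed, and single transcripts of low abundance rest on few cells. The named genes also include some, such as Igkc and Il22, that passed the low-count filter only through the SDHA-KO libraries and had to differ. For such genes a kept call or direction supports nothing.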

Other observations

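Some lists were not described above. Over all Tem cells 7 of 13 genes of aspartate and pyrimidine synthesis rose and 1 fell, 6 of 20 antioxidant genes rose and 4 fell, 2 of 19 interferon-stimulated genes rose and 3 fell, and 3 of 11 dissociation and stress genes rose and 1 fell. The share of members that passed was 33.4% over all genes. Without the Trdc-carrying cells 3 of 13, 3 of 19, 3 of 17 and 2 of 11 rose. Of 15 tested chemokine and homing receptors 6 rose and 2 fell, and of 17 genes of the IL-2 and gamma-chain cytokine axis 4 rose and 1 fell, with 3 of 14 and 6 of 17 higher without the Trdc-carrying cells. None of these counts was tested for the list as a whole.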
